A study of Homo sapiens with 2 samples.

Results

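The genes described here encode the subunits, activators, inhibitor and assembly chaperones of the proteasome. They were taken from the deposited expression table as the rows whose symbol is PSMA, PSMB, PSMC, PSMD, PSME, PSMF or PSMG followed by a number, together with POMP, and 48 of the 18930 rows met this rule. PSMC3IP, which shares the first letters but is no proteasome gene, was left out. Of the 48 genes, 47 had at least 10 reads over both libraries and were compared, and PSMA8 was under that minimum. Bulk RNA was sequenced in 2 libraries, 1 in the group DR and 1 in the group WT, below called the DR library and the WT library by label only. Both are labelled as A375, an established human melanoma cell line of skin origin, grown in DMEM with serum. DR stands for cells made resistant to dacarbazine (DTIC), a drug that alkylates DNA, by months of exposure, and WT for the wild-type control of the same line. The labels, which spell the drug DITC, give 105 days of it also for the WT library. Neither label gives a dose or says whether a library came from 1 clone.

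The proteasome is the protease that degrades most ubiquitin-tagged proteins in the cytosol and nucleus. Its barrel-shaped core is built of rings of alpha subunits, which gate the entrance, and rings of beta subunits, of which PSMB5, PSMB6 and PSMB7 carry the active sites. In immune cells and in cells exposed to interferon, PSMB8, PSMB9 and PSMB10 are built in instead of these 3, giving the immunoproteasome, which is known for making peptides for MHC class I. The regulatory particle caps the core: its base of ATPases and receptors unfolds the substrate and its lid removes the ubiquitin, while other caps (PSME1 to PSME4) open the core without ubiquitin.

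The libraries held 54878310 reads (DR) and 35294629 reads (WT) after rounding, and 3 reads were worth 0.054 and 0.0861 CPM, the unit in which reads are divided by the scaled library size. Each count column was assigned to the sample whose description is its name. The names of the columns differ by 1 punctuation mark, and both look like the title of the DR sample, none like that of the WT sample, so that all directions below depend on the descriptions. With 1 library per group there was no replicate check and no p-value. Intervals are 95% Clopper-Pearson intervals from the reads, which cover counting error only. The labelled cell type was checked against its markers. Of 7 melanocytic markers, 6 had a count in the table, and their summed level was 41.6 CPM in the DR library and 40.4 CPM in the WT library, most of it from MITF at 34.6 and 34.7 CPM. SOX10, a transcription factor of the melanocytic lineage, had 3 reads in the DR library and 0 in the WT library. TYRP1, a pigment enzyme, had 0 and 17 reads. Of 7 plasma cell markers all 7 had counts, from 58.1 to 2012 CPM in the DR library and from 64.5 to 2917 CPM in the WT library, with sums of 4465 and 5625 CPM. Apart from MITF, markers of the labelled melanoma cells were thus low, at 4.46 CPM (PMEL in the DR library) or below, and those of plasma cells, which secrete antibodies, were high in both libraries. The part of this in any difference below was not tested, and in bulk RNA fewer cells of a type and less RNA per cell cannot be told apart.

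The promoters of the member with the largest difference in each direction are shown first, from 250 bases before to 50 bases after the transcription start in RefSeq on GRCh38.p14, in the direction of the gene. PSMD7 was lowest in the DR library relative to the WT library, and its promoter lies at chr16:74296564-74296863 on the plus strand. PSMB9 was the highest, and its promoter lies at chr6:32853942-32854241 on the plus strand. Capitals mark the CCAAT box in both and, in PSMB9, a match on the reverse strand to TGACNNNGC, the core of the element that NFE2L1 and related factors bind. Counted with the start base as 0, the CCAAT boxes began at -198 in PSMD7 and -243 in PSMB9, and the other match at -148.
PSMD7: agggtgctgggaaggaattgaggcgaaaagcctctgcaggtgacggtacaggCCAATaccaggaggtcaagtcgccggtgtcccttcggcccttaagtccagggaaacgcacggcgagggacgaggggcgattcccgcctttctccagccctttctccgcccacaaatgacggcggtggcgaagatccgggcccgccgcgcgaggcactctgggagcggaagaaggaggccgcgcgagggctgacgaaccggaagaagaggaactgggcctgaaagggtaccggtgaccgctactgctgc
PSMB9: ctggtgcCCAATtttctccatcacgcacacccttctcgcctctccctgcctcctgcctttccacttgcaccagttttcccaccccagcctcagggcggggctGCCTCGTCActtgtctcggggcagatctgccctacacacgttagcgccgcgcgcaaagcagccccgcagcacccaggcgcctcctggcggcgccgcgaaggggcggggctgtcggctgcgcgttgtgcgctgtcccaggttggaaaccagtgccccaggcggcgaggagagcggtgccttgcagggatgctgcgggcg

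The second set shows 50 bases around a match to GAAA followed by any 2 bases and GAAA, the paired element that interferon-regulated factors bind, in the 4 genes of the immunoproteasome and its activator that held one. These are PSMB8 (chr6:32844022-32844071, minus strand), PSMB10 (chr16:67936842-67936891, minus strand), PSME1 (chr14:24136179-24136228, plus strand) and PSME2 (chr14:24146609-24146658, minus strand), all in the direction of the gene. The match in capitals was GAAAGCGAAA in all 4, read on the reverse strand as TTTCGCTTTC in PSMB8 and PSME1. It began at -4, -21, 5 and -28 in the order given. The letters are the same, while the levels below differ in direction: PSMB8 and PSME1 were higher in the DR library, PSMB10 was lower and PSME2 was nearly level.
PSMB8: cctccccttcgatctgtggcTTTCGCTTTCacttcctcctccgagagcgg
PSMB10: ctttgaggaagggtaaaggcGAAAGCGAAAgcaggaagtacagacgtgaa
PSME1: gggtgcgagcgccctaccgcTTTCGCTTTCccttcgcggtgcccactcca
PSME2: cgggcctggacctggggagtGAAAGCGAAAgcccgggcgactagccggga

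The proteasome genes as a family were slightly lower in the DR library. Their reads made up 0.550% (0.548 to 0.552) of all reads in the DR library and 0.592% (0.590 to 0.595) in the WT library, and 0.538% and 0.567% without PSMD7. Differences are given as log2 of the CPM plus 0.5, DR minus WT. The median difference over the 47 members was -0.15, against 0.01 over all 16210 genes compared and -0.05 over the 6608 genes whose mean level was at or above that of the lowest member. Of the members, 32 of 47 (68.1%) were below 0, against 48.9% of all genes and 55.4% of the 6608. This count of members was the same under each scaling and pseudocount tried with all genes in.

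Few members differed by much. More than 2-fold higher in the DR library were 0 members, where 7.48% of all genes and 2.77% of the 6608 were. More than 2-fold lower was 1 member, PSMD7, where 4.16% of all genes and 2.97% of the 6608 were. At 1.5-fold, 1 member was higher (PSMB9), against 15.1% and 7.67%, and 1 was lower (PSMD7), against 11.2% and 10.4%. The other 45 lay within 1.5-fold, as did 73.8% of all genes and 81.9% of the 6608. The spread of the members' differences was small too, with an SD over genes of 0.30 against 0.78 for all genes and 0.63 for the 6608. Counting error was smaller than most differences: the interval lay wholly below 0 for 31 members (66.0%), against 34.6% and 48.1% in the same gene sets, and wholly above 0 for 11 (23.4%), against 35.8% and 37.0%. Since these intervals hold no spread between cultures, they say only that the libraries differed.

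**Figure D1:**
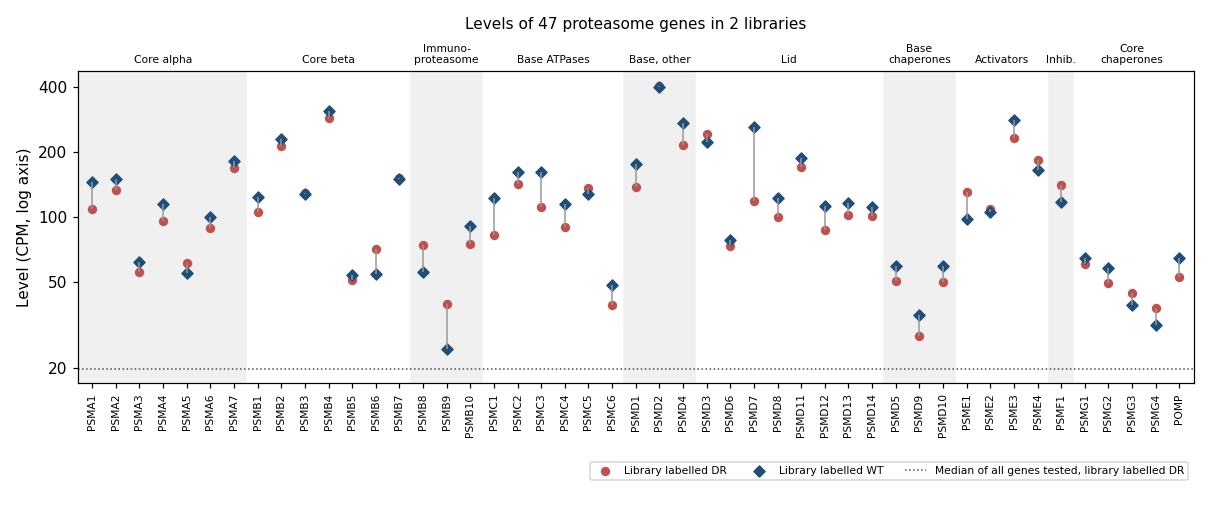
Level of the 47 compared proteasome genes in CPM (log axis) in the DR library (circles) and the WT library (diamonds), grouped by class, with the median of all genes in the DR library as a dotted line at 19.97 CPM. The widest gaps between the libraries are at PSMD7 (118 and 261 CPM) and, in the other direction, at PSMB9 (39.5 and 24.7 CPM), and the symbols of most other genes lie close together.

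**Figure D2:**
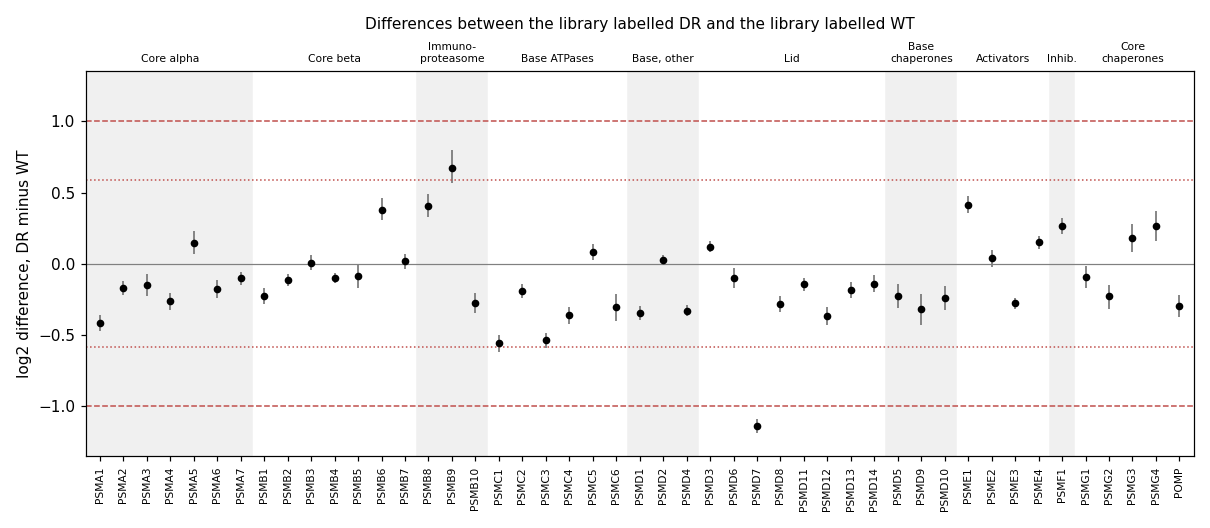
log2 difference of each member (DR minus WT, points) with its 95% counting interval (bars); dashed lines mark 2-fold and dotted lines 1.5-fold. PSMD7 at -1.13 is the only point past 2-fold, PSMB9 at 0.67 is above the upper 1.5-fold line, and 32 of the 47 points lie below 0.

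The genes of the regulatory particle were mostly lower in the DR library. Of its 17 genes, 14 were below 0, and the median difference was -0.28. The lid, which houses the deubiquitinase PSMD14 and its partner PSMD7, had a median of -0.16 and 7 of 8 genes below 0. PSMD7 (gene ID 5713), the scaffold that pairs with PSMD14, had 6580 reads in the DR library and 9086 in the shallower WT library, or 118 and 261 CPM, a difference of -1.13 (-1.18 to -1.09). Its level in the WT library was 2.20 times that in the DR library, and it alone among the 48 passed 2-fold. Its partner PSMD14 was at 101 and 111 CPM, a difference of -0.14 (-0.20 to -0.08). Without PSMD7, the lid genes ran from -0.36 for PSMD12 to 0.12 for PSMD3, both structural lid subunits. PSMD3 was the only lid gene above 0, at 242 and 222 CPM.

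The base was lower too, and its ATPases unevenly so. Of the 6 ATPases, which form the ring that unfolds substrates, 5 were below 0 and the median was -0.33. PSMC1 was at 82.9 CPM in the DR library and 122 CPM in the WT library, a difference of -0.56 (-0.62 to -0.50), which put it just inside the 1.5-fold limit. PSMC3 was at 112 and 162 CPM, a difference of -0.53 (-0.59 to -0.48). PSMC4 and PSMC6 lay at -0.36 and -0.30 and PSMC2 at -0.19, while PSMC5 was at 0.08 (0.03 to 0.14). The ring is built with 1 copy of each ATPase, and within it the differences ran from -0.56 to 0.08. Of the 6 ATPase genes 4 had fractional estimated counts, PSMC1 among them and PSMC3 not. In the rest of the base, the scaffold PSMD1 (138 and 175 CPM, -0.34) and the ubiquitin receptor PSMD4 (215 and 271 CPM, -0.33) were lower, and the scaffold PSMD2 was at 405 and 397 CPM, a difference of 0.03 whose interval reached 0.

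The core particle differed less. The alpha subunits had a median difference of -0.17 with 6 of 7 below 0, and the constitutive beta subunits one of -0.08 with 4 of 7 below 0. Among the alpha subunits PSMA1 was lowest, at 109 CPM in the DR library and 145 CPM in the WT library, a difference of -0.41 (-0.47 to -0.36). PSMA5 was the single one above 0, at 61.4 and 55.4 CPM and 0.15, with fractional counts. The other alpha subunits lay between -0.26 and -0.10. Among the beta subunits without an active site, PSMB1, PSMB2, PSMB3 and PSMB4 lay between -0.23 and 0.01. The 3 with active sites did not share a direction. PSMB5, the chymotrypsin-like site and the target of bortezomib, was at 51.2 and 54.2 CPM, a difference of -0.08 whose interval reached 0. PSMB6, the caspase-like site, was at 71.2 and 54.6 CPM, a difference of 0.38 (0.30 to 0.46). PSMB7, the trypsin-like site, was at 151 and 149.5 CPM, a difference of 0.02 whose interval held 0.

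The immunoproteasome subunits were split in direction. PSMB9 (gene ID 5698), which takes the place of PSMB6, had 2196 reads in the DR library and 860 in the WT library, or 39.5 and 24.7 CPM, a difference of 0.67 (0.57 to 0.80). PSMB8 (gene ID 5696), which takes the place of PSMB5, was at 74.2 and 55.9 CPM, a difference of 0.41 (0.33 to 0.49). PSMB10 (gene ID 5699), which takes the place of PSMB7, was at 75.0 and 90.7 CPM, a difference of -0.27 (-0.34 to -0.21). PSMB8 and PSMB9, which lie close to each other in the MHC region among the peptide transporter genes TAP1 and TAP2, were thus higher in the DR library and PSMB10, on chromosome 16, was lower. The median of the 3 was 0.41, against -0.11 for the 14 constitutive core genes.

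The ratio of each immunoproteasome subunit to the one it replaces was taken within each library, from reads divided by the deposited gene length. PSMB8 to PSMB5 was 1.52 (1.45 to 1.59) in the DR library and 1.08 (1.01 to 1.15) in the WT library. PSMB9 to PSMB6 was 0.460 (0.437 to 0.485) and 0.375 (0.346 to 0.407). PSMB10 to PSMB7 was 0.508 (0.489 to 0.527) and 0.621 (0.594 to 0.649). The first and second ratios were higher in the DR library, by 0.49 (0.38 to 0.61) and 0.30 (0.16 to 0.44) on the log2 scale, and the third was lower, by -0.29 (-0.38 to -0.21). These shifts between libraries do not depend on the length used, whereas the ratios themselves do: with the median length of protein-coding GENCODE v29 transcripts, PSMB8 to PSMB5 was 1.16 and 0.825, on both sides of 1. Over the 3 pairs together, the immunoproteasome genes held 39.3% of the summed level per length in the DR library and 39.0% in the WT library, so that the opposite shifts left the overall share nearly level.

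**Figure D3:**
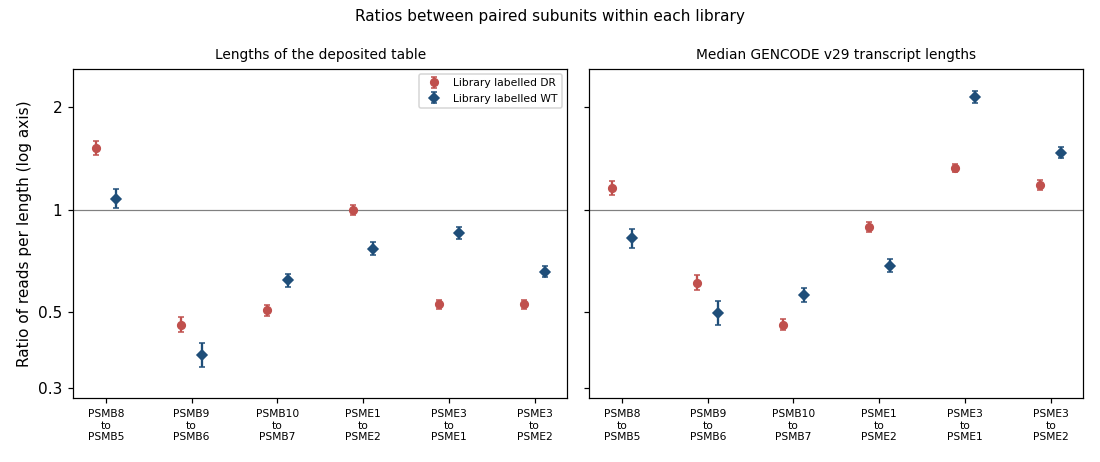
Ratio of reads per length between paired genes within each library (log axis; circles DR, diamonds WT, bars 95% counting intervals), with deposited lengths on the left and median GENCODE v29 lengths on the right. PSMB8 to PSMB5, PSMB9 to PSMB6 and PSME1 to PSME2 are higher in the DR library in both panels and the other 3 ratios are lower, while the PSME3 ratios lie below 1 on the left and above 1 on the right.

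Of the 4 activator genes, 3 were above 0 and the median difference was 0.09. PSME1 and PSME2 form the interferon-inducible cap that is known to work with the immunoproteasome. PSME1 was at 131 CPM in the DR library and 97.9 CPM in the WT library, a difference of 0.42 (0.36 to 0.48). PSME2 was at 108 and 106 CPM, a difference of 0.04 (-0.02 to 0.10). Although the cap holds both proteins, the ratio of PSME1 to PSME2 per length thus differed, at 1.001 (0.968 to 1.04) in the DR library and 0.770 (0.735 to 0.807) in the WT library. PSME3, the nuclear activator, was at 232 and 281 CPM, a difference of -0.28 (-0.32 to -0.24). PSME3 to the mean of PSME1 and PSME2 per length was 0.528 (0.516 to 0.541) in the DR library and 0.744 (0.721 to 0.767) in the WT library. In the DR library PSME3 was lower relative to both, by -0.69 (-0.77 to -0.62) against PSME1 and -0.32 (-0.39 to -0.25) against PSME2 on the log2 scale. Whether PSME3 was under or over the other pair depended on the length: with GENCODE lengths its ratio to their mean was 1.25 and 1.75. PSME4, which caps the core as a single large protein, was at 184 and 166 CPM, a difference of 0.15 (0.10 to 0.20). PSMF1, an inhibitor of the core, was at 141 and 117 CPM, a difference of 0.26 (0.21 to 0.32).

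The chaperones that assemble the base and the core were read apart. The 3 chaperones of the base (PSMD5, PSMD9 and PSMD10) were all below 0, from -0.32 to -0.22, at 28.2 to 50.7 CPM in the DR library and 35.3 to 59.3 CPM in the WT library. The chaperones of the core were divided. POMP, which helps the beta ring to form, was at 52.8 and 64.9 CPM, a difference of -0.29 (-0.38 to -0.22). PSMG1 and PSMG2, which act together on the alpha ring, were at -0.09 and -0.23, and the pair PSMG3 and PSMG4 was at 0.18 and 0.26. Members of each chaperone pair thus had the same sign and the pairs had opposite signs. PSMG3 and PSMG4 had fractional counts. PSMA8, the testis form of an alpha subunit, had 2 reads in the DR library and 0 in the WT library, at or under the floor of 3 reads, and no fold is given.

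Within the particle the subunits are present in equal number, while their transcripts were not. Levels were compared between genes per length, as reads divided by the deposited gene length and scaled to a common sum over all genes (TPM). Over the 14 constitutive core genes, PSMB4 was highest, at 693 TPM in the DR library and 753 TPM in the WT library, and PSMA5 lowest, at 35.7 and 32.6 TPM. The highest was 19.4 times the lowest in the DR library and 23.1 times in the WT library, and the coefficient of variation over genes was 70.8% and 70.3%. With GENCODE lengths, in which PSMA5 has 2616.5 bases in place of 3838, the highest was 12.7 and 15.1 times the lowest. Over the 17 regulatory particle genes, PSMD4 was highest, at 361 and 459 TPM, and PSMD12 lowest, at 44.0 and 57.4 TPM. The ratio was 8.21 and 7.999, and the coefficient of variation was 55.3% and 55.5%. Per deposited length, the coefficients of variation and the regulatory particle ratio were thus nearly the same in both libraries. The core ratio was lower in the DR library (18.7 to 20.1) than in the WT library (22.0 to 24.2). By reads alone the regulatory particle ratio was 10.3 in the DR library and 8.19 in the WT library. PSMD2 was then the highest gene and PSMC6 the lowest. Of the 14 core genes, the alpha subunits ran from 35.7 to 359.9 TPM in the DR library with PSMA7 highest, and the beta subunits from 92.3 TPM for PSMB5 to PSMB4.

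**Figure D4:**
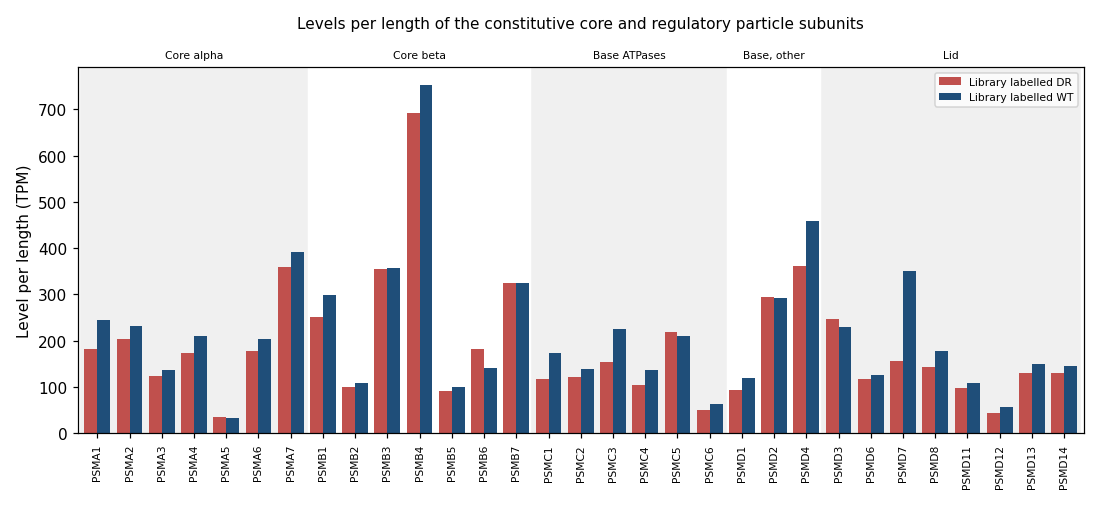
Level per deposited length (TPM, bars from 0) of the 14 constitutive core and 17 regulatory particle genes in the DR library (red) and the WT library (blue). PSMB4 is highest in both libraries (693 and 753 TPM), PSMA5 is the lowest (35.7 and 32.6 TPM), and the gap between libraries is widest in proportion at PSMD7 (157 and 349.5 TPM).

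Other genes of the pathway were read from 6 lists of 36 genes, all with counts. Of these, 0 were past 2-fold in either direction, and 2 were higher and 2 lower at 1.5-fold, with the shares of all genes as given above, while 22 lay below 0 and 14 above. Of the regulatory particle subunits with other names, ADRM1, a ubiquitin receptor, was at 128 CPM in the DR library and 167 CPM in the WT library, a difference of -0.38 (-0.43 to -0.33). SEM1, the smallest lid subunit, was at 43.5 and 39.4 CPM, a difference of 0.14 (0.05 to 0.24). The list of enzymes and other proteins bound to the proteasome (UCHL5, USP14, UBE3C, the adaptor ECPAS and the thioredoxin-like TXNL1) had a median of -0.39 with 4 of 5 below 0. The deubiquitinases in this list were among the lower ones, UCHL5 at 137 and 206 CPM (-0.59) and USP14 at 130.5 and 189 CPM (-0.53). The list of ubiquitin shuttles such as UBQLN1 also held the proteasome activator ZFAND5 and AKIRIN2, which acts in nuclear import of proteasomes. Its genes were below 0 in 7 of 7 cases, with a median of -0.39. UBE3C, a ubiquitin ligase, was the only gene above 0 in the list of bound proteins, at 0.21 (0.17 to 0.25).

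The transcription factor NFE2L1, which is known to raise proteasome genes when the proteasome is inhibited, was at 276 CPM in the DR library and 302 CPM in the WT library, a difference of -0.13 (-0.17 to -0.09). The list of NFE2L1, NFE2L2 (a factor of antioxidant genes) and the proteins that process or partner NFE2L1 had a median of 0.15. In it, 3 of 8 were below 0, and the partner MAFF was past 1.5-fold at 13.7 and 7.69 CPM (0.79). The interferon list had a median of 0.13 with 2 of 7 below 0. IRF1, a factor that acts on immunoproteasome genes, was at 88.2 and 66.7 CPM, a difference of 0.40 (0.33 to 0.48). The genes of this list lay on both sides of 0: IFNGR2, a receptor chain for interferon gamma, was higher at 75.2 and 45.8 CPM (0.71), and NLRC5, an activator of MHC class I genes, was lower at 43.3 and 67.3 CPM (-0.63). The list of ubiquitin genes and E1 enzymes had a median of -0.09 with 4 of 6 below 0, and UBB, a polyubiquitin gene, was at 657 and 500.1 CPM (0.39).

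The genes next to PSMD7 and PSMB9 were read in the order of the RefSeq table of GRCh38.p14, as the 5 nearest compared genes on each side. Of all genes, 48.9% were below 0 and 7.48% were past 2-fold higher. Around PSMD7 the median difference of the 10 neighbours was -0.29, and 7 of 10 were below 0. Its direct neighbour ZFHX3, a transcription factor gene, was at 10.7 CPM in the DR library and 22.6 CPM in the WT library, a difference of -1.05 (-1.24 to -0.93), and PMFBP1 beyond it was at 1.73 and 3.82 CPM (-0.95). On the other side, NPIPB15 and CLEC18B were at -0.22 and 0.03, with 662 and 51 reads in the DR library. RFWD3 and GLG1, further on that side, were at -0.55 and -0.33. The values closest to that of PSMD7 were thus those of ZFHX3 and PMFBP1, both on the same side of it. Some other members had neighbours with a lower median than those of PSMD7, such as PSMA6 at -0.49. Around PSMB9 the median was 0.70 and 1 of 10 was below 0, much as around PSMG4, with 0.57 and 1 of 10. Past 2-fold higher were 4 neighbours in each case, and around PSMB9 all 4 were MHC class II genes. These were HLA-DPA1 at 88.7 and 16.4 CPM (2.40), HLA-DOB at 8.50 and 2.44 CPM (1.61), HLA-DMB at 16.7 and 5.36 CPM (1.55) and HLA-DMA at 55.9 and 20.3 CPM (1.44). TAP1, the peptide transporter gene beside PSMB9, was at 107 and 82.8 CPM, a difference of 0.37 (0.31 to 0.44), and TAP2 at 199 and 181 CPM, one of 0.13 (0.09 to 0.18). BRD2, between HLA-DMA and HLA-DOA, was the 1 neighbour below 0, at 289 and 440 CPM, a difference of -0.60 (-0.64 to -0.57). PSMB8, TAP1, TAP2 and BRD2 thus lay below PSMB9 in this stretch, and these 4 class II genes above it. Of the other class II genes there, HLA-DOA lay below PSMB9, at 0.34 (0.10 to 0.64). HLA-DQB2, with 40 and 4 reads, or 0.720 and 0.115 CPM, was at 0.99 with the 0.5 CPM added. Its counting interval, taken without that addition, was 1.18 to 4.59, wholly past 2-fold. HLA genes resemble each other and vary between people, so that reads may be split between them and their counts are uncertain.

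**Figure D5:**
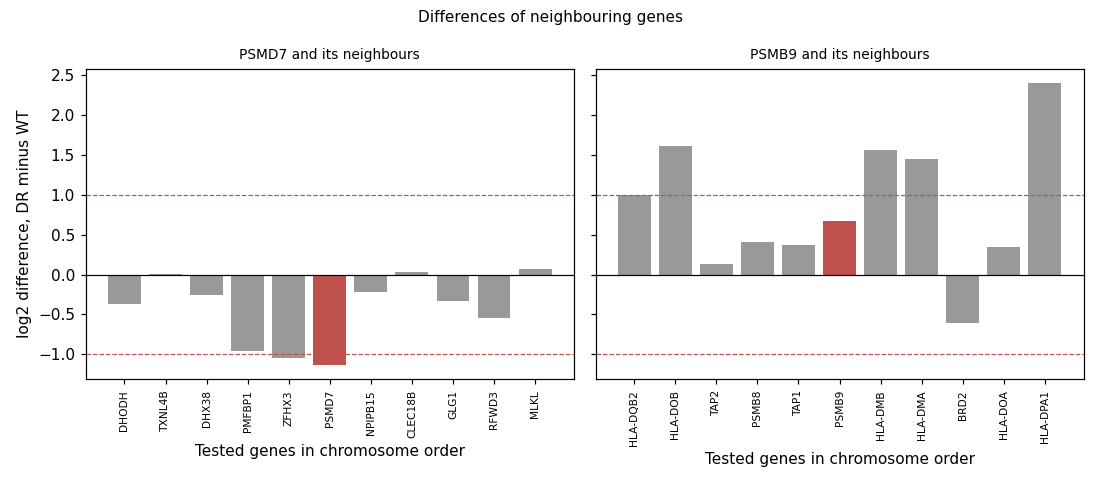
log2 difference (DR minus WT, bars from 0) of the 5 compared genes on each side of PSMD7 (left) and PSMB9 (right), in chromosome order, with the member in red and dashed lines at 2-fold. ZFHX3 beside PSMD7 reaches -1.05, and 4 MHC class II genes beside PSMB9 are past 2-fold, HLA-DPA1 the highest at 2.40.

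In the promoters, 41 of the member genes had 50 RefSeq promoter sequences, which were searched on both strands beside all 35116 promoters. TGACNNNGC was in 30.0% of the member promoters and 13.3% of all, in 15 genes that include PSMA4, PSMB9, PSMC4, PSMD12 and both PSME1 and PSME2. The pair of GAAA parted by 2 bases was in 14.0% and 3.57%, and besides the 4 genes printed above it was in PSMA4, PSMB4 and PSMG4. CCAAT was in 38.0% and 34.6%. The member promoters were also richer in G and C, with a median of 62.3% against 58.7%, and held a median of 22 CpG against 14. PSMD7 held CCAAT and neither of the other motifs given here. A match is a description of the letters and not a bound site, and a missing match says only that the letters were not in this window.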

How the data were processed

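The authors deposited 1 table of 18930 rows, which holds estimated counts for both libraries, gene lengths, annotation, and their own log2 ratio, p-value, q-value and direction, which were not used. The submitters' processing notes name Bowtie 0.12.2 and hg19 without their roles. The counting tool, the annotation and the use of strand are not given in the sources used here, so reads of overlapping genes on opposite strands cannot be told apart. No count was held for 663 genes. Count columns left without a sample numbered 0.

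Estimated counts, fractional for 13 members, were rounded and scaled by edgeR 4.0.16 TMM in R 4.3.3. A gene needed 10 reads summed over the libraries to be compared, which kept 16210 genes and left out 2057, as the log2 of CPM plus 0.5. Called means past 2-fold or 1.5-fold, since 1 library per group allows no test. Intervals are 95% Clopper-Pearson intervals from SciPy 1.17.1, conditional intervals for changes of ratios, and delta-method intervals for PSME3 to the mean of PSME1 and PSME2. They cover counting error only, since each group has 1 library, and the number of reads sets their width. They are taken without the added 0.5 CPM, so that at low levels a difference can lie outside its interval. Reads carry no molecular identifiers, so copies of the same molecule count as separate reads and the intervals may be too narrow. The scaling and the calls were tested on simulated counts, with counting error only and changes set well past 2-fold. That test cannot show how the calls fare against spread between cultures or for smaller differences. Alternatives were DESeq2 1.42.0 size factors, library totals, no filter, a minimum of 50 reads, pseudocounts of 0.1 and 5 CPM, leaving out genes with fractional counts, and no division by length. GENCODE lengths and the background of 6608 genes were added after seeing the data.

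Members and lists were chosen with earlier results of these data known. By the rule for named genes, the text names members past 1.5-fold, the immunoproteasome subunits with those they replace, the activators, the highest and lowest of a class and members with almost no reads, and of the other lists NFE2L1, IRF1, TAP1, TAP2, ADRM1 and SEM1. Some list genes and 1 motif are not reported here. All others were named after their values were seen. The table lists SEM1 under an older symbol. All 48 members matched RefSeq by gene ID, which served for the order of genes, and 41 had promoters there. PSMB11 and the marker TYR were not analysed here.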

Additional observations from a re-analysis of the deposited data

How the results depend on the processing

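The counts of members past each fold kept their value within 1.5 times under every scaling, filter and pseudocount tried, and 32 of the 47 members stayed below 0 in each of those settings. Without genes with fractional counts, 34 members were left, 27 of them below 0, and 4 members changed sign. In that setting the class median moved from -0.33 to -0.49 for the base ATPases, with 4 of 6 genes left out. It moved from -0.33 to -0.37 for the rest of the base, with 0 left out. For the core chaperones it moved from -0.09 to -0.27, with 2 of 5 left out. The ATPase and chaperone values thus rest on fewer genes as well as on another scaling. With library totals, PSMD2 and PSMB4 moved beyond their counting intervals, to 0.07 and -0.07. The median of all genes stayed between 0.00 and 0.04 over the settings.

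Levels compared between genes depended on the length, the DR value being given first. Without division by length, PSMB9 to PSMB6 was 0.555 and 0.452, PSME1 to PSME2 was 1.21 and 0.927, and PSME3 to the mean of PSME1 and PSME2 was 1.94 and 2.76. The highest over the lowest core gene was then 5.61 and 5.68 (PSMB4 over PSMB5), and over the regulatory particle 10.3 and 8.19 (PSMD2 over PSMC6). With GENCODE lengths, PSMB8 to PSMB5 was 1.16 and 0.825, PSMB9 to PSMB6 was 0.612 and 0.498, PSMB10 to PSMB7 was 0.460 and 0.563, PSME1 to PSME2 was 0.893 and 0.687, and PSME3 to that mean was 1.25 and 1.75. The highest over the lowest was then 12.7 and 15.1 for the core (PSMB4 over PSMA5). For the regulatory particle it was 10.9 and 11.1 (PSMD4 over PSMC6). The genes compared thus changed with the length used. The changes of the ratios between libraries hold no length.

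No paired analysis was possible because each group has 1 library, and for the same reason none was left out. No other library was there to check the spread between cultures, the assignment of the count columns or the labelled cell type. Depth limits PSMA8 alone among the members, with 2 and 0 reads.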
